A study of Mus musculus with 8 samples.

Results

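The respiratory chain genes of the mouse were picked by gene symbol from the 25834 genes of an RNA-seq count table of hippocampus. The rule uses names only, though it was set with earlier results of these data known. Symbols starting with Nduf and a subunit letter and number, Uqcr, Cox4 to Cox8 or Atp5, the Sdh genes a to d, and the mitochondrial Nd, Co, Cytb and Atp genes were taken. Of 99 matching names, 2 that end in ps and a digit were left out as pseudogene names, so 97 genes remained. The nuclear genome carries 84 of them and the mitochondrial genome 13. Complex I holds 44 (37 nuclear, 7 mitochondrial), complex II 4 (all nuclear), complex III 9 (8 and 1), complex IV 20 (17 and 3) and complex V 17 (15 and 2). The remaining 3 carry an Atp5 name without encoding a subunit. Atp5s and Atp5sl belong to the Dmac2 family of assembly proteins, and Atp5l2-ps is a processed pseudogene.

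The respiratory chain passes electrons from NADH and succinate through complexes I to IV to oxygen and pumps protons across the inner mitochondrial membrane, and complex V, the ATP synthase, uses the proton gradient to make ATP. Neurons rely on it heavily to restore ion gradients after synaptic activity. Complexes I, III, IV and V each combine subunits made in the mitochondrion with subunits imported from the cytosol, so their assembly draws on 2 genomes, while complex II is wholly nuclear. The mitochondrial genes are transcribed as long precursors from both strands and cut at the transfer RNAs between them, whereas each nuclear gene has its own promoter.

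Hippocampal RNA was sequenced from 4 control and 4 SAP97-cKO male mice, with 1 library per mouse. SAP97 is a synaptic scaffold protein encoded by Dlg1. SAP97-cKO mice were Nestin-cre+/-; SAP97fl/fl, in which the Nestin promoter drives Cre in neural progenitors, the cells that give rise to neurons, astrocytes and oligodendrocytes but not to microglia or vessel cells. Controls were littermates carrying Nes-cre+/- or SAP97fl/fl, or wild type. The sources used here do not say which of these genotypes each control library had, or how old the sequenced mice were. Libraries held 37388177 to 37426572 counts. Dlg1 stood at 107 to 125 CPM (read counts put on a common library size) in controls and 53.7 to 82.0 CPM in SAP97-cKO, with a log2 fold change of -0.86 (SE 0.12, edgeR adjusted p = 0.143). Markers of excitatory neurons summed to 7076 to 8012 CPM in controls and 7444 to 9665 CPM in SAP97-cKO. Whole tissue was sequenced, so fewer cells of a type and less RNA per cell cannot be told apart.

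Of the 97 genes, 96 had enough reads to be tested and 0 differed between genotypes at the false discovery rate (FDR) of 0.25 that the study used. Over all 16251 genes tested, edgeR called 0.283% lower and 0.0123% higher in SAP97-cKO. The lowest adjusted p of any respiratory chain gene was 0.339 in edgeR and 0.342 in limma-voom, which also called 0, while DESeq2 called 3, Cox4i2 and Cox6b2 lower and mt-Nd5 higher, beside 3.5% of all genes lower and 2.47% higher in DESeq2. At an unadjusted p under 0.05, 9 of the 83 nuclear genes tested were lower and 0 higher, against a background of 7.01% of all genes lower and 4.73% higher. Among the 13 mitochondrial genes, 0 were lower and 1 (mt-Nd5) was higher. Beside these single-gene results, the log2 fold changes of the nuclear genes leaned below 0 and those of the abundant mitochondrial genes above 0, in opposite directions within the same complexes. The following paragraphs give the values by genome and by complex.

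The mitochondrial genes fell into 2 groups by level that follow their order on the chromosome. Levels were compared between genes as CPM per kb of exon sequence, since longer transcripts collect more reads. Averaged over the 8 libraries, 7 genes (mt-Nd1, mt-Nd2, mt-Co1, mt-Nd4, mt-Nd5, mt-Nd6 and mt-Cytb) lay between 1685 and 8172 CPM per kb. The other 6 (mt-Co2, mt-Atp8, mt-Atp6, mt-Co3, mt-Nd3 and mt-Nd4l) lay between 3.2 and 12.5 CPM per kb. The lowest of the abundant genes was 135 times the highest of the scarce ones, mt-Atp8. The deposited table gives each mitochondrial gene a span 200 bases wider on each side, and per kb of that span the scarce genes lay between 1.36 and 4.96 CPM per kb (mt-Atp8 at 4.22), the abundant ones between 951 and 6492, and the ratio was 192. The scarce genes are neighbours, filling chrM:7013-10173 on the plus strand of GRCm38, and abundant genes lie on both sides of them.

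**Figure D1:**
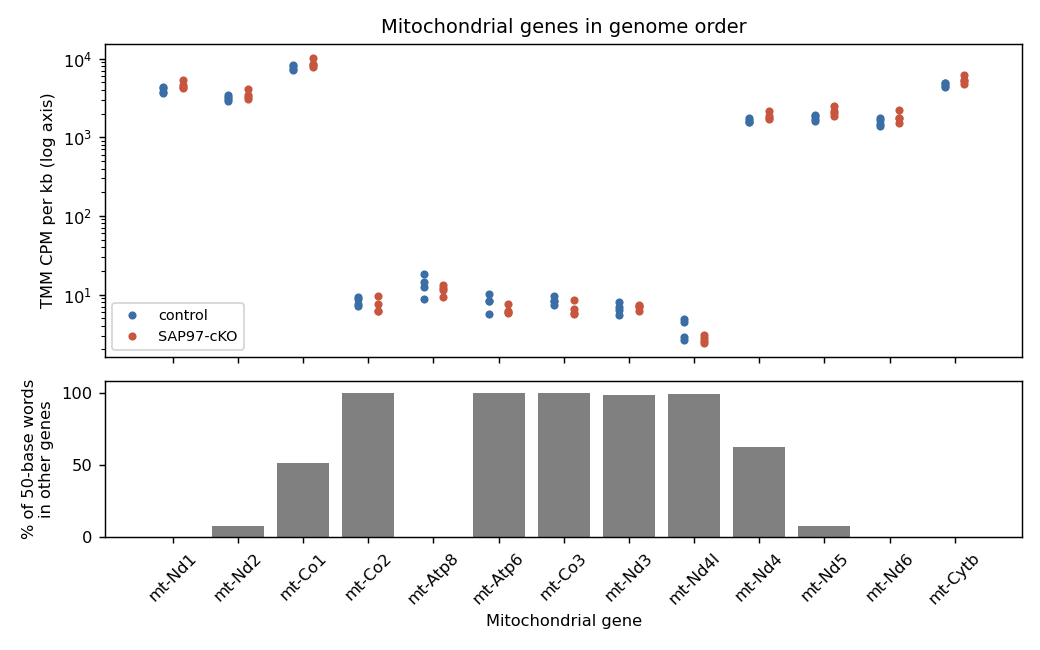
The upper plot shows TMM-scaled CPM per kb on a log axis for the 13 mitochondrial genes in their order on the chromosome, with 1 point per library (4 control, 4 SAP97-cKO). The lower bars give the percent of each gene's 50-base words that also occur in another annotated gene. The 6 neighbouring genes from mt-Co2 to mt-Nd4l lie at 12.5 CPM per kb or below on average, and 5 of these 6 share 98.0% or more of their words with other genes.

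In sequence, 5 of the 6 scarce genes are nearly wholly repeated elsewhere in the annotated transcripts. For mt-Co2, mt-Atp6, mt-Co3, mt-Nd3 and mt-Nd4l, 98.0% to 100% of all 50-base words also occur in another gene, chiefly in a run of unprocessed pseudogenes on chromosome 1. The abundant genes share less. The share was 62.2% for mt-Nd4, 51.1% for mt-Co1, 8.19% for mt-Nd2, 7.61% for mt-Nd5 and 0% for mt-Nd1, mt-Nd6 and mt-Cytb. mt-Atp8, which is as scarce as its neighbours, shared 0% with annotated transcripts, and unannotated parts of the nuclear genome were not analysed here. It starts between mt-Co2 and mt-Atp6, whose copies lie at chr1:24614885-24615565 (Gm28661) and chr1:24613974-24614651 (Gm10925). The bases between these copies were not examined for mt-Atp8, so the 0% does not show that it lacks a copy there. mt-Nd4l, which encodes a small core subunit of complex I, is shown because its copy Gm10222 at chr1:24612407-24612700 (minus strand) matches it over all 294 bases of the copy without a difference. Its sequence of 297 bases at chrM:9877-10173 on the plus strand follows from the GENCODE M21 transcripts, and the capitals mark the 3 bases that lie beyond the end of the copy.
mt-Nd4l: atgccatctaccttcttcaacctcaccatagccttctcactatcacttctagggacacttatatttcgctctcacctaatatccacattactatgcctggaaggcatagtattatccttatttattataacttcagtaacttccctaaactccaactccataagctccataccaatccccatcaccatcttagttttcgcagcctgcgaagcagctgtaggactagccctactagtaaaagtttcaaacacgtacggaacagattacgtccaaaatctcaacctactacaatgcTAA

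Reads from most of this sequence therefore cannot be assigned to the mitochondrion or to chromosome 1 by sequence alone. mt-Nd4l held 26 to 55 counts per library and Gm10222 held 5 to 17. The study's methods state that reads from mitochondrial DNA were taken out before counting, while mt-Nd1 held 129364 to 186836 counts. The sources used here do not say how much of the mitochondrial RNA the remaining counts represent, or how reads matching both places were counted. The level of each mitochondrial gene is thus a level in the deposited table, and the part of that removal step in the differences between libraries was not tested.

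Among the abundant mitochondrial genes, every log2 fold change was above 0, from 0.14 (mt-Nd2) to 0.27 (mt-Nd5), with a median of 0.20 beside -0.01 over all genes tested. In each of these 7 genes the highest library was SAP97-cKO 1. mt-Nd5, a core subunit of the proton-pumping arm of complex I, stood at 2906, 3540, 3103 and 3392 CPM in controls 1 to 4 and at 4592, 3691, 3364 and 3936 CPM in SAP97-cKO 1 to 4. The groups overlapped, since SAP97-cKO 3 lay below control 2 and control 4. Its log2 fold change was 0.27 (SE 0.11, edgeR adjusted p = 0.40, exact two-sided permutation test p = 0.0857). mt-Nd5 and mt-Nd6 overlap on opposite strands at chrM:13552-13565, and the sources used here do not say whether reads were counted by strand.

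mt-Nd1, the core subunit of complex I that forms part of the quinone site, had 3461, 4081, 3615 and 4128 CPM in controls and 5088, 4139, 4000 and 4377 CPM in SAP97-cKO. The lowest SAP97-cKO library lay below 2 controls, and the log2 fold change was 0.20 (SE 0.10, edgeR adjusted p = 0.455). mt-Co1, the catalytic subunit of complex IV, was the most abundant member per kb, with 7680 ± 590 CPM per kb in controls and 8664 ± 1028 in SAP97-cKO (SD, n = 4 each). Its CPM ran from 10934 to 12723 in controls and from 11994 to 15631 in SAP97-cKO, which overlap. The log2 fold change of mt-Co1 was 0.17 (SE 0.11, edgeR adjusted p = 0.526). mt-Cytb, the cytochrome b of complex III and its single mitochondrial subunit, had 5357 ± 334 CPM in controls and 6169 ± 699 CPM in SAP97-cKO (SD, n = 4 each), with 0.20 on the log2 scale (SE 0.10, edgeR adjusted p = 0.447). The other complex I genes mt-Nd2, mt-Nd4 and mt-Nd6 had log2 fold changes of 0.14, 0.19 and 0.20, each with overlapping groups.

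The 6 scarce mitochondrial genes had log2 fold changes from -0.43 to 0.04 with a median of -0.27, and 5 of the 6 were below 0. They came to 19.6 to 27.2 CPM in all in a control library and 18.1 to 24.1 CPM in a SAP97-cKO library. mt-Co3, a subunit of complex IV, had 5.75, 6.40, 7.43 and 6.54 CPM in controls and 6.67, 5.16, 4.39 and 4.61 CPM in SAP97-cKO. SAP97-cKO 1 lay among the controls and the other 3 SAP97-cKO libraries below them all, with a log2 fold change of -0.33 (SE 0.15, edgeR adjusted p = 0.43). mt-Atp6 and mt-Atp8, the mitochondrial subunits of the ATP synthase, had log2 fold changes of -0.33 (SE 0.17) and -0.21 (SE 0.22). mt-Co2, which takes electrons from cytochrome c, had -0.16 (SE 0.17), mt-Nd4l -0.43 (SE 0.26) and mt-Nd3 0.04 (SE 0.16). The adjusted p of these 6 genes was 0.43 or above in edgeR, and in each of them the groups overlapped.

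The 13 mitochondrial members summed to 28503, 32398, 28859 and 32835 CPM in controls 1 to 4 and 40854, 33155, 31179 and 34795 CPM in SAP97-cKO 1 to 4. The 84 nuclear genes came to 10694, 11025, 11073 and 13915 CPM in controls and 10179, 10843, 10836 and 11498 CPM in SAP97-cKO. The ratio of the mitochondrial to the nuclear sum was 2.67, 2.94, 2.61 and 2.36 in controls and 4.01, 3.06, 2.88 and 3.03 in SAP97-cKO. Both sums and the ratio overlapped between the groups, with control 4 highest in the nuclear sum and SAP97-cKO 1 highest in the mitochondrial sum. The mitochondrial sum had a ratio of group means, SAP97-cKO over control, of 1.14, and that of 10 excitatory neuron markers was 1.17. Of their 10 log2 fold changes 9 were above 0 and 0 passed the FDR. At an unadjusted p under 0.05, 3 were higher, beside 4.73% of all genes tested. Their sum was highest in SAP97-cKO 4 (9665 CPM) and next highest in SAP97-cKO 1 (8996 CPM), where the mitochondrial sum was highest. Among controls the neuron marker sum was highest in control 1 (8012 CPM), where the mitochondrial sum was lowest. Ratios of the other cell marker lists ran from 0.363 (choroid plexus) to 1.06 (astrocytes, highest in SAP97-cKO 1 at 7735 CPM). The part of any of these cells in the mitochondrial sum was not tested. The mean ratio of the mitochondrial to the nuclear sum was 2.64 ± 0.24 in controls and 3.24 ± 0.52 in SAP97-cKO (SD, n = 4 each). Without control 4 and SAP97-cKO 1 the means were 2.74 and 2.99. No p is given for these sums, since the genes were chosen with earlier results known. Outside the members, the mitochondrial ribosomal RNA genes mt-Rnr1 and mt-Rnr2 together had 8845, 7390, 7580 and 10776 CPM in controls. In SAP97-cKO they had 9402, 7766, 6953 and 7540 CPM, and the groups overlapped. The study's methods state that ribosomal and mitochondrial reads were taken out before counting, so these values are levels left in the deposited counts.

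**Figure D2:**
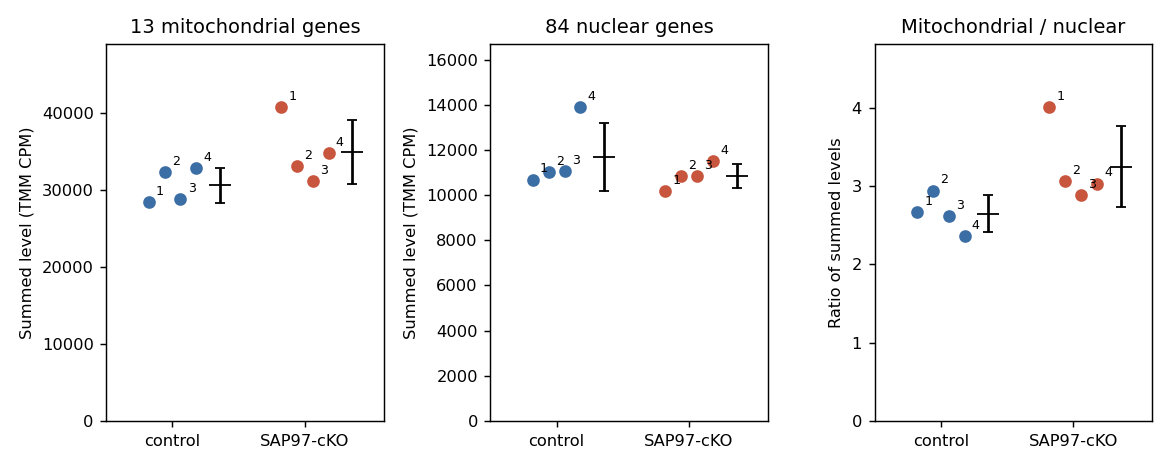
The plots show, for each library (numbered points), the summed TMM CPM of the 13 mitochondrial genes, of the 84 nuclear genes, and the ratio of these sums, with the mean and SD of each group of 4 beside the points. Control 4 stands at 13915 CPM in the nuclear sum, where the other 7 libraries lie between 10179 and 11498, and SAP97-cKO 1 has a ratio of 4.01 where the others lie between 2.36 and 3.06.

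Promoter sequence, which the name rule did not use, was searched for 3 motifs. Nuclear respiratory factor 1 (Nrf1), GA-binding protein (Gabp) and Yy1 are transcription factors known to bind promoters of respiratory chain genes. RefSeq promoter windows of 300 bases (250 before to 50 after the start, GRCm38.p6) were matched for 69 of the 84 nuclear genes, and 15 were not matched. The Nrf1 motif GCGCATGCG, on either strand, occurred in 8 of 69 (11.6%), beside 1.95% of 27025 promoters. The Gabp motif ACCGGAAG was found in 6 (8.7%, beside 2.6%) and the Yy1 motif AAGATGGCG in 8 (11.6%, beside 1.64%). None of the 3 motifs occurred in 47 of the 69. No test was run on these shares, and a match gives letters, not a bound site. For each motif 1 promoter is shown, that of the gene with the smallest p among those holding it, to show where the letters sit. The sequences read along the gene's own strand, and the capitals mark the motif on either strand, which in Atp5k overlaps its own match on the opposite strand. They are Atp5k, an ATP synthase subunit that joins its dimers, at chr5:108434350-108434649 (minus strand, Nrf1), Sdhd, the membrane anchor of complex II, at chr9:50603800-50604099 (minus strand, Gabp), and Atp5j, a stalk subunit of the ATP synthase, at chr16:84834927-84835226 (minus strand, Yy1).
Atp5k: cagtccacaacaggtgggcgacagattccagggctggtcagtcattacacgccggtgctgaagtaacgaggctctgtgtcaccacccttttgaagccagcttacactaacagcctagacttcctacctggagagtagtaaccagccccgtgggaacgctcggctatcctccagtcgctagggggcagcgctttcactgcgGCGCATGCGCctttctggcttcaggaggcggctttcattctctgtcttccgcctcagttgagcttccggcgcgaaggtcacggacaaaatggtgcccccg
Sdhd: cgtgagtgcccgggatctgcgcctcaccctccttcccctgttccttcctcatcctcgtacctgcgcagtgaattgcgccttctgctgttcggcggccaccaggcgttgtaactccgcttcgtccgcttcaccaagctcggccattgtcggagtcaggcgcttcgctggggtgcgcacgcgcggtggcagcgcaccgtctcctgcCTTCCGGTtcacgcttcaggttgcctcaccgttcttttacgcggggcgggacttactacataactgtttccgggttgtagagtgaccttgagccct
Atp5j: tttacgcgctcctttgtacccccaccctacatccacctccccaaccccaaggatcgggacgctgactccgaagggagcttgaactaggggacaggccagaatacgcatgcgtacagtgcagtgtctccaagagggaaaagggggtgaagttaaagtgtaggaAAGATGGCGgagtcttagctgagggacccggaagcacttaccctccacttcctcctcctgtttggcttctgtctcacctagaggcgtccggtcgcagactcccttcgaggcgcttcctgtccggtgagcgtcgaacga

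Atp5k had 95.7, 96.6, 94.7 and 132 CPM in controls and 83.5, 98.5, 91.2 and 95.9 CPM in SAP97-cKO. Sdhd had 88.1, 91.9, 97.4 and 123 CPM in controls and 80.6, 90.3, 83.7 and 90.6 CPM in SAP97-cKO. Atp5j had 139, 150, 149 and 188 CPM in controls and 126, 138, 128 and 145 CPM in SAP97-cKO. In all 3, control 4 stood above the other controls and SAP97-cKO 1 was the lowest library. The log2 fold changes were -0.18 (SE 0.11), -0.21 (SE 0.10) and -0.22 (SE 0.098), with adjusted p of 0.525, 0.44 and 0.423 in edgeR. These 3 genes, picked by p, lie further below 0 than the nuclear median of -0.14.

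Over the nuclear genes, 79 of the 83 tested (95.2%) had a log2 fold change below 0, beside 52.8% of all genes tested, and their median was -0.14 beside -0.01. Genes of the chain share libraries and regulation, so this count is not a count of independent results. Control 4 was the highest library in 73 of the 83, and in 72 of the 76 with a mean of 10 CPM or more. SAP97-cKO 1 was the lowest library in 51 of the 83. Without control 4, the nuclear median was -0.02 and 51 of 83 genes were below 0. Without both control 4 and SAP97-cKO 1, the median was 0.00 and 41 of 83 were below 0. The abundant mitochondrial genes differed in this respect. Their median was 0.23 without control 4, 0.12 without SAP97-cKO 1 and 0.15 without both, and 7 of 7 stayed above 0 each time. These genes are cut from shared precursors and share libraries, with SAP97-cKO 1 the highest library in all 7. The 7 are thus not a count of independent results either.

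**Figure D3:**
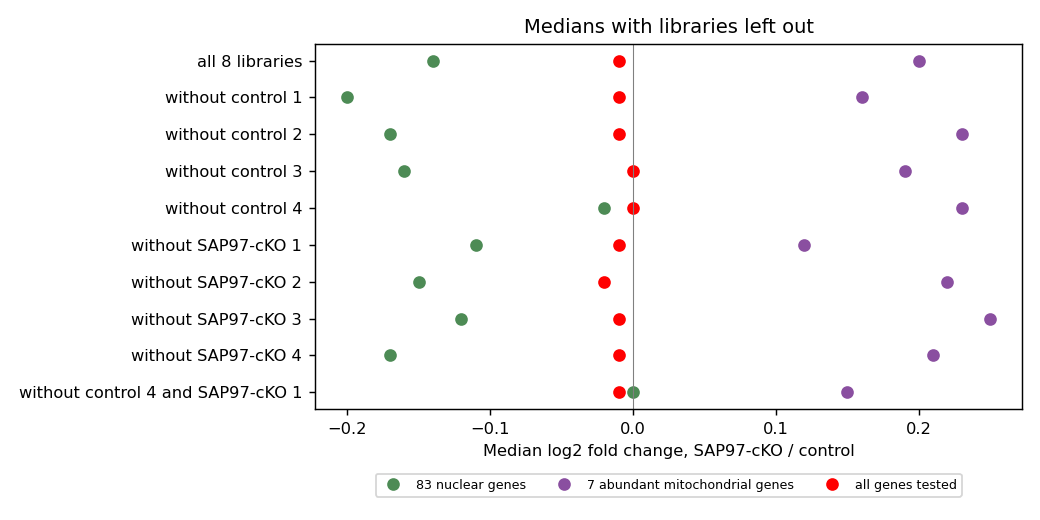
The plot shows on its horizontal axis the median log2 ratio of SAP97-cKO to control of the 83 nuclear genes tested, of the 7 abundant mitochondrial genes and of all genes tested, with all 8 libraries and with the named libraries left out. The nuclear median moves from -0.14 to -0.02 without control 4 and the mitochondrial median stays between 0.12 and 0.25.

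Control 4 differed from the other libraries in a way that went with transcript length. The longest annotated transcript of a nuclear respiratory chain gene had a median of 1001 bases, against 3478 bases for the 14538 other protein-coding genes tested. Among those other genes, the median log2 ratio of control 4 to the mean of the 8 libraries was 0.31 for transcripts under 1000 bases (473 genes), 0.19 from 1000 to 2000 bases, 0.05 from 2000 to 4000 bases and -0.15 above that. Nuclear respiratory chain genes in control 4 stood at 0.39 under 1000 bases (41 genes), 0.31 from 1000 to 2000 bases (25 genes) and 0.26 from 2000 to 4000 bases (13 genes), above the other genes in each of these bins, and the 4 longer chain genes were not binned. In the same bins SAP97-cKO 1 stood at -0.13, -0.14 and -0.14 for the chain genes and at -0.10, -0.07 and -0.02 for other genes. The log2 fold change between genotypes had a median of -0.14 in other genes under 1000 bases and -0.16 in chain genes of that length, and without control 4 both medians were -0.03. From 1000 to 2000 bases the medians were -0.08 in other genes and -0.14 in chain genes, and without control 4 they were -0.02 and -0.01. From 2000 to 4000 bases they were -0.03 and -0.08, and without control 4 -0.01 and -0.00. The part of transcript length in the nuclear lean was not tested.

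**Figure D4:**
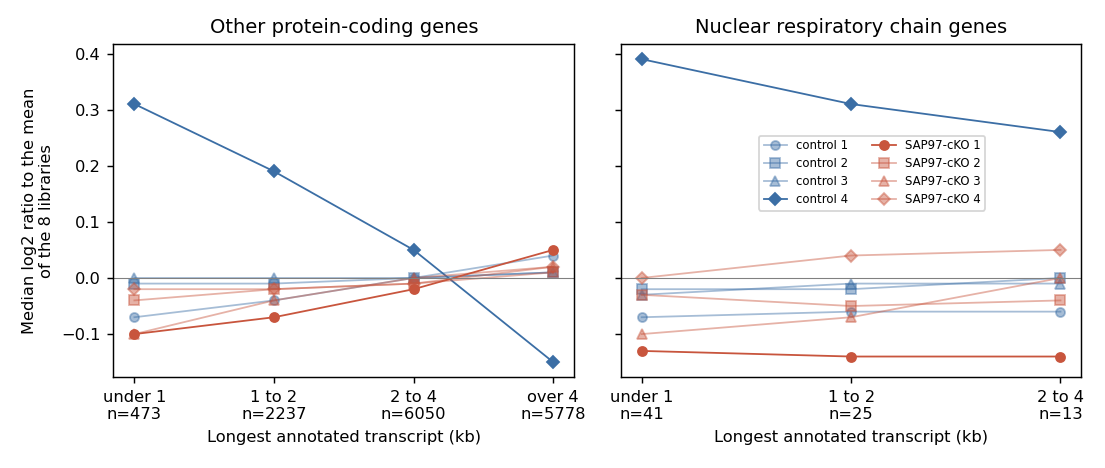
The plots show, for each library, the median log2 ratio to the mean of the 8 libraries (vertical axis) by length of the longest annotated transcript in kb, for other protein-coding genes (left) and nuclear respiratory chain genes (right), with the number of genes under each bin. Control 4 runs from 0.31 to -0.15 across the bins on the left, where the other 7 libraries stay between -0.10 and 0.05, and stands between 0.26 and 0.39 on the right.

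By complex, the nuclear medians were close to each other, while mitochondrial subunits of the same complexes spread more widely. The median log2 fold change of the nuclear subunits was -0.14 in complex I, -0.14 in complex II, -0.16 in complex III, -0.14 in complex IV and -0.16 in complex V. Without control 4 these medians lay between -0.05 and 0.00. The mitochondrial subunits had a median of 0.19 in complex I, 0.20 in complex III, -0.16 in complex IV and -0.27 in complex V. The values of complexes IV and V are those of genes from the scarce stretch, apart from mt-Co1.

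**Figure D5:**
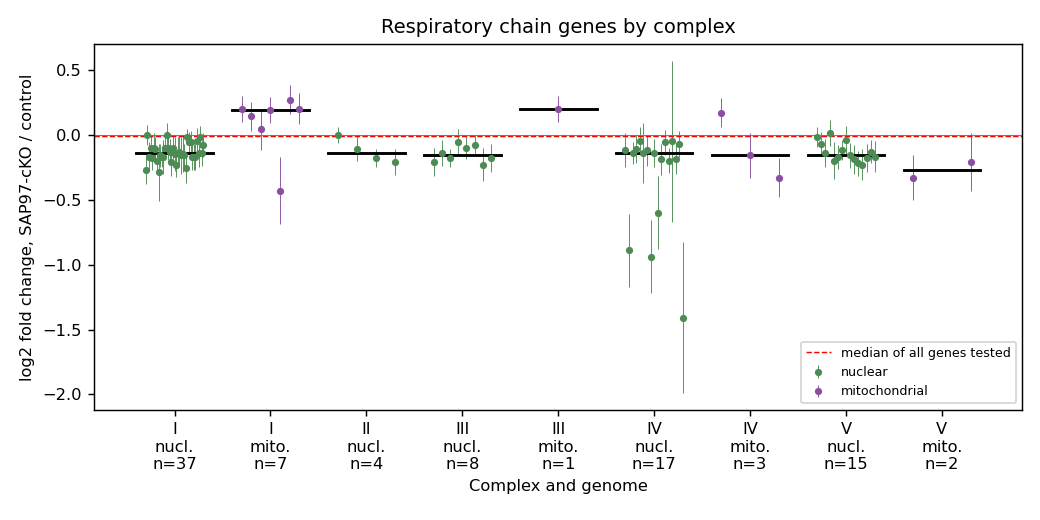
The plot shows the log2 ratio of SAP97-cKO to control for each respiratory chain gene tested, with its SE, by complex and genome, a black bar at the median of each set and a dashed line at the median of all genes tested (-0.01). The nuclear medians lie between -0.16 and -0.14, and the outlying nuclear genes of complex IV are Cox8b (-1.41), Cox6b2 (-0.94), Cox4i2 (-0.89) and Cox7a1 (-0.60).

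In complex I, which takes electrons from NADH, the 37 nuclear subunits came to 2921, 3012, 3027 and 3872 CPM in controls and 2797, 2951, 2941 and 3115 CPM in SAP97-cKO. Control 4 lay far above the rest, and the other 3 controls lay within the range of SAP97-cKO. Of these subunits 36 (97.3%) had a log2 fold change below 0, beside 52.8% of all genes tested. At an unadjusted p under 0.05, 3 of the 37 were lower, beside 7.01% of all genes tested. These 3 (Ndufa1, Ndufb5 and Ndufc2) are named after their values were seen. Ndufa1, a small membrane-arm subunit encoded on the X chromosome, had 47, 56.6, 53.2 and 71.9 CPM in controls and 47.8, 48.1, 46.6 and 46.7 CPM in SAP97-cKO. Control 1 lay among the SAP97-cKO libraries, and the log2 fold change was -0.27 (SE 0.11, edgeR adjusted p = 0.40, exact permutation test p = 0.0857). Ndufb5 and Ndufc2, both membrane-arm subunits, had -0.23 (SE 0.097) and -0.26 (SE 0.11). The nuclear subunit with the highest level was Ndufa4, at 176 ± 26.9 CPM per kb in controls and 153 ± 8.06 in SAP97-cKO (SD, n = 4 each). Ndufa4 is counted here by its name, although its protein is now placed in complex IV. At the other end, Ndufa10, Ndufa9, Ndufs1 and Ndufv1, of which the last 2 carry electrons from NADH, had log2 fold changes between -0.02 and 0.00.

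Complex II, the succinate dehydrogenase that also serves the TCA cycle, has 4 subunits and no mitochondrial gene. Sdha, the flavoprotein that oxidises succinate, was the most abundant of them per kb (111 ± 1.84 CPM per kb in controls, SD, n = 4). It had 452, 468, 463 and 454 CPM in controls and 434, 466, 463 and 480 CPM in SAP97-cKO, with a log2 fold change of 0.00 (SE 0.061, edgeR adjusted p = 0.982). Control 4 was not high for Sdha. It was for Sdhb, the iron-sulfur subunit, with 113, 115, 117 and 148 CPM in controls and 104, 117, 112 and 124 CPM in SAP97-cKO (log2 fold change -0.11, SE 0.096, edgeR adjusted p = 0.652). Sdhc, which with Sdhd anchors the enzyme in the membrane, had 82.1, 94.6, 96.0 and 101 CPM in controls and 82.0, 81.1, 85.4 and 82.4 CPM in SAP97-cKO. The SAP97-cKO libraries lay close together and control 1 lay among them. The log2 fold change of Sdhc was -0.18 (SE 0.071, edgeR adjusted p = 0.392, exact permutation test p = 0.0857).

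Complex III passes electrons from quinol to cytochrome c. All 8 nuclear subunits tested had log2 fold changes below 0, from -0.23 to -0.06, beside 52.8% of all genes tested below 0. Uqcrb, which binds quinone, had 74.8, 83.3, 80.1 and 91.1 CPM in controls and 70.7, 76.0, 72.8 and 71.7 CPM in SAP97-cKO. Only SAP97-cKO 2 lay above the lowest control, and the log2 fold change was -0.18 (SE 0.070, edgeR adjusted p = 0.387, exact permutation test p = 0.0571). Per kb, the highest nuclear subunit was Uqcr10, at 151 ± 25.9 CPM per kb in controls and 130 ± 7.12 in SAP97-cKO (SD, n = 4 each), with a log2 fold change of -0.21 (SE 0.11). The catalytic Rieske protein gene Uqcrfs1 had -0.08 (SE 0.080) and the core protein genes Uqcrc1 and Uqcrc2 had -0.06 (SE 0.10) and -0.10 (SE 0.087).

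Complex IV, cytochrome c oxidase, held the 2 respiratory chain genes whose groups did not overlap. Both were lower in every SAP97-cKO library than in any control, and 0 members were higher in this way, beside 3.47% of all genes tested lower and 2.78% higher. Cox4i2, the lung and hypoxia isoform of the regulatory subunit 4, had 1.31, 1.07, 1.19 and 1.06 CPM in controls and 0.762, 0.852, 0.515 and 0.361 CPM in SAP97-cKO, from 13 to 49 counts a library. Its log2 fold change was -0.89 (SE 0.28, edgeR adjusted p = 0.347, exact permutation test p = 0.0286, the smallest p that 4 against 4 allow). Cox6b2, the testis isoform of subunit 6b, had 1.71, 3.73, 2.70 and 1.66 CPM in controls and 1.58, 1.28, 1.25 and 0.999 CPM in SAP97-cKO, with -0.94 (SE 0.28, edgeR adjusted p = 0.339, exact permutation test p = 0.0286). Both are isoforms of low level in this tissue, at 1.47 ± 0.150 and 2.21 ± 0.883 CPM per kb in controls (SD, n = 4).

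The heart and muscle isoforms were also scarce. Cox8b had 0.589, 1.73, 1.17 and 0.286 CPM in controls and 0.218, 0.532, 0.515 and 0.139 CPM in SAP97-cKO, from 5 to 65 counts a library. The groups overlapped, and the log2 fold change was -1.41 (SE 0.58, edgeR adjusted p = 0.399, exact permutation test p = 0.114). Cox7a1 had 1.15, 2.48, 1.22 and 1.61 CPM in controls and 0.926, 1.38, 0.948 and 0.999 CPM in SAP97-cKO (log2 fold change -0.60, SE 0.28, edgeR adjusted p = 0.434). Cox6a2 stood at -0.14 (SE 0.23), and the testis isoform Cox7b2 at -0.05 (SE 0.62), with 3 to 14 counts a library.

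The isoforms that predominate in brain were far more abundant, and their log2 fold changes lay closer to 0. Per kb of exon sequence Cox8a was the highest nuclear gene of the chain, at 601 ± 93.7 CPM per kb in controls and 571 ± 23.7 in SAP97-cKO (SD, n = 4 each), while per kb of the longest transcript Atp5b (702) ranked above Cox8a (676). Cox8a had a log2 fold change of -0.07 (SE 0.10, edgeR adjusted p = 0.778). Cox4i1 had 333, 343, 343 and 519 CPM in controls and 336, 360, 348 and 367 CPM in SAP97-cKO, so that control 4 lay apart and the other 7 libraries close together. Its log2 fold change was -0.12 (SE 0.13), and without control 4 it was 0.05. Cox6a1, Cox6b1 and Cox7a2 had -0.05 (SE 0.11), -0.12 (SE 0.12) and -0.19 (SE 0.12). Per kb, the mean ratio of Cox4i1 to Cox4i2 was 172 in controls (129 to 248) and 325 in SAP97-cKO (215 to 516), which overlap. That of Cox6b1 to Cox6b2 was 129 (66.1 to 215) and 206 (146 to 270), and that of Cox8a to Cox8b was 390 (113 to 934) and 818 (378 to 1546). The pairs Cox6a1 and Cox6a2 (83.9 and 88.3), Cox7a2 and Cox7a1 (48.5 and 60.8) and Ndufa4 and Ndufa4l2 (122 and 133) had closer means.

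The levels of markers of other cells are set beside these scarce isoforms, and their part in them was not tested. The 12 meningeal fibroblast markers summed to 180 to 288 CPM in controls and 99.3 to 181 CPM in SAP97-cKO, and 5 of the 12 fell at an FDR under 0.25. Their lowest sum was in SAP97-cKO 1, where Cox4i2 (0.762 CPM) was second highest of its group. Pericyte and smooth muscle markers (10 genes, 0 past the FDR) summed to 232 to 254 CPM in controls and 142 to 231 CPM in SAP97-cKO, without overlap. All 10 were below 0 and 4 were lower at an unadjusted p under 0.05, beside 7.01% of all genes tested. Choroid plexus markers (12 genes, 0 past the FDR) ran from 181 to 6975 CPM in controls and from 105 to 2398 CPM in SAP97-cKO. They were highest in control 2 and control 3, where Cox8b and Cox6b2 were highest too. Within SAP97-cKO these markers were highest in SAP97-cKO 2 (2398 CPM), where Cox8b was also highest of that group (0.532 CPM). Cox6b2 was highest of that group in SAP97-cKO 1 (1.58 CPM), where the choroid plexus markers summed to 583 CPM. With the mean choroid plexus level in the model, Cox8b stood at -0.58 (SE 0.29), against -1.41 without it. Cox6b2 stood at -0.63 (SE 0.25) against -0.94, Cox7a1 at -0.46 (SE 0.29) against -0.60 and Cox4i2 at -0.80 (SE 0.30) against -0.89. With the mean meningeal fibroblast level, which itself differed between genotypes, Cox4i2 stood at -0.35 (SE 0.54), Cox6b2 at -0.43 (SE 0.56), Cox7a1 at 0.26 (SE 0.48) and Cox8b at 0.20 (SE 0.93). Oligodendrocyte markers (10 genes, 0 past the FDR) summed to 6035 to 9652 CPM in controls and 4672 to 8457 CPM in SAP97-cKO. All 10 were below 0 and 7 were lower at an unadjusted p under 0.05.

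Complex V, the ATP synthase, had the largest nuclear sum, at 3990, 4102, 4135 and 5009 CPM in controls and 3682, 4022, 4092 and 4331 CPM in SAP97-cKO. Atp5b, the catalytic beta subunit, was its most abundant gene per kb at 317 ± 31.2 CPM per kb in controls and 303 ± 21.6 in SAP97-cKO (SD, n = 4 each). It had 1246, 1276, 1319 and 1538 CPM in controls and 1169, 1259, 1316 and 1385 CPM in SAP97-cKO, with a log2 fold change of -0.07 (SE 0.091, edgeR adjusted p = 0.765). Atp5a1, the alpha subunit, had -0.02 (SE 0.076) and Atp5d, in the central stalk, had 0.01 (SE 0.10). The log2 fold changes of the 15 nuclear subunits ran from -0.23 to 0.01 and 14 were below 0, beside 52.8% of all genes tested. Atp5j was the single one lower at an unadjusted p under 0.05, beside 7.01% of all genes tested. Atp5s and Atp5sl, which carry the name but encode no subunit, had 0.01 (SE 0.086) and -0.05 (SE 0.073). Atp5l2-ps, with 0 to 4 counts a library, was not tested, and 73.4% of its 50-base words also occur in another gene, chiefly Atp5l.

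Genes that serve the chain without matching the name rule were read from the same fit, and 0 of them passed an FDR of 0.25. Of 44 assembly factors tested, 35 (79.5%) were below 0, beside 52.8% of all genes tested, with a median log2 fold change of -0.07. At an unadjusted p under 0.05, 1 was lower, beside 7.01% of all genes tested. That gene was Cox20, which guides subunit 2 of complex IV. Cox20 had 5.91, 7.38, 8.65 and 5.94 CPM in controls and 4.90, 5.46, 4.61 and 4.89 CPM in SAP97-cKO, without overlap (log2 fold change -0.49, SE 0.14, edgeR adjusted p = 0.332, exact permutation test p = 0.0286). Electron carriers (15 genes, median -0.07) had 2 at that p, Etfb (-0.30, SE 0.11) and Etfa (-0.23, SE 0.085), the 2 subunits of the electron transfer flavoprotein. Of the 15 genes of mitochondrial genome expression (median -0.05), the mitochondrial RNA-binding protein Slirp had -0.26 (SE 0.095), with 18.9 to 22.9 CPM in controls and 14.7 to 17.8 CPM in SAP97-cKO. The 6 chain subunits outside the name pattern had a median of -0.12 and the 16 TCA cycle genes one of -0.01, with 0 at an unadjusted p under 0.05 in either list. The smallest p there belonged to 1810058I24Rik (-0.16, SE 0.098) and to Suclg1, a subunit of succinyl-CoA ligase (-0.17, SE 0.076). Control 4 had the highest control sum for assembly factors (1348 CPM, other controls 1192 to 1201) and electron carriers (728 CPM, others 594 to 629). It was also highest for the chain subunits outside the name pattern (589 CPM, others 433 to 450) and TCA cycle genes (3405 CPM, others 3132 to 3201). For mitochondrial genome expression it was lowest (337 CPM, others 343 to 357).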

How the data were processed

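RNA-seq counts of hippocampus were analysed for 4 control and 4 SAP97-cKO mice, grouped by the sample labels. The authors used STAR 2.5.3a for alignment to mm10 (GRCm38.p5), and PORT 0.8.2a-beta took out ribosomal and mitochondrial reads, resampled the libraries to a like depth and counted reads on Ensembl genes. Resampling fixes library totals, so a change in a few abundant genes shifts the share left to the others. The values deposited by the authors are whole-number counts per gene. The authors also deposited columns of their limma-voom results (a log2 fold change with a p-value and a q-value), and none of these was used.

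Genes were filtered with filterByExpr (minimum count 10, minimum total 15), scaled by TMM (factors 0.964 to 1.03) and compared between genotypes in R 4.3.3 by edgeR 4.0.16 (quasi-likelihood test). P-values were adjusted by the Benjamini-Hochberg method over all 16251 genes tested, with a threshold of 0.25. For single genes an exact two-sided permutation test was run over 70 assignments (smallest p 0.0286). Nothing in the sources says that mice of 1 group came from separate litters or batches, so p-values measure the spread between these libraries. CPM per kb used the union of annotated exons (GENCODE M21). All 97 genes were found in that annotation. Motifs were searched in RefSeq promoter windows. Plots were drawn with matplotlib 3.10.9.

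Members and lists were chosen with earlier results of these data known. Genes named one by one were every mitochondrial member, the most abundant member of each complex, the 5 smallest p in each direction, tissue isoform pairs, the Sdh genes, a bare -ps name and the smallest p of each other list. Further names (Ndufa1, Ndufb5, Ndufc2, Atp5j, Atp5k, Uqcr10 and those given with an SE only) were added after their values were seen, as were the split into abundant and scarce mitochondrial genes at 100 CPM, the length bins, the wider span of mitochondrial genes and the fit without control 4 and SAP97-cKO 1. Alternatives were limma-voom (limma 3.58.1), DESeq2 1.42.0, other scalings and filters, the replicate number as a block, marker covariates, an FDR of 0.05, another gene length and each library left out.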

Additional observations from a re-analysis of the deposited data

Results flagged for a closer look

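In groups of 4 libraries, a library was picked out where its gap to the nearest other, as a share of the whole range of its group, passed Dixon's critical value. Chance picks out about 1 in 20 groups, and 88 groups were examined, which share libraries. Of the 12 values picked out, 10 were those of control 4, each the highest of its group. Control 4 had 13915 CPM summed over the nuclear respiratory chain genes where the other controls had 10694 to 11073. By complex it had 3872 CPM for nuclear complex I (others 2921 to 3027), 2812 CPM for complex IV (others 2003 to 2049) and 5009 CPM for complex V (others 3990 to 4135). Among single genes it had 519 CPM for Cox4i1 (others 333 to 343), 346 CPM for Cox6a1 (246 to 251), 228 CPM for Cox6b1 (156 to 162), 165 CPM for Cox7a2 (112 to 117), 458 CPM for Cox8a (336 to 346) and 148 CPM for Sdhb (113 to 117). SAP97-cKO 1 had a mitochondrial to nuclear ratio of 4.01 where the other SAP97-cKO libraries had 2.88 to 3.06. SAP97-cKO 2 had 1.38 CPM for Cox7a1 where the others of its group had 0.926 to 0.999.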

How the results depend on the processing

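The number of respiratory chain genes past an FDR of 0.25 was 0, 3 in DESeq2 and 0 to 8 with 1 library left out, with 8 without control 1 (1675 genes over the whole table) and 2 without SAP97-cKO 1 (Cox6b2 and mt-Co3, 711 genes over the table). Without control 4 and SAP97-cKO 1 it was 6 (Atp5d, Cox4i2, Cox6b2, Cox8b, Ndufa9 and mt-Co3, with 1930 genes called over the whole table), and at an FDR of 0.05 it was 0. Nuclear genes lower at an unadjusted p under 0.05 numbered 9, but 19 without scaling, 36 with the choroid plexus covariate, 0 with the meningeal fibroblast covariate (0 genes called of all), 3 without control 4 and SAP97-cKO 1 and 2 to 19 with 1 library left out (2 without SAP97-cKO 1, 3 without control 4 or SAP97-cKO 3, 4 without SAP97-cKO 4, 5 without control 2 or control 3, 19 without control 1). Mitochondrial genes higher at that p numbered 1, but 4 in DESeq2, 0 without scaling, with either covariate or without control 4 and SAP97-cKO 1, and 0 to 3 with 1 library left out (2 without control 4, 3 without SAP97-cKO 3). In the main fit 7.01% of all genes tested were lower and 4.73% higher at that p. These shares are not given for the other settings, so the counts there are not read as particular to the chain. Without scaling the median log2 fold change over all genes was -0.06.

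The replicate number as a block gave 1 gene past the FDR (Cox8b, adjusted p = 0.157 in edgeR, with 256 genes called over the table against 48 without the block), 9 nuclear genes lower and 0 mitochondrial genes higher at the unadjusted p, and medians of -0.13 and 0.14. Same-numbered libraries had correlations of deviations of -0.062, 0.201, 0.0898 and 0.259, so the numbers were not read as pairs. With 1 library left out, the nuclear median ran from -0.20 to -0.02, the mitochondrial median from 0.09 to 0.20 and their difference (0.28 with all libraries) from 0.20 to 0.33. Without control 4 and SAP97-cKO 1 the difference was 0.12. The nuclear median was -0.21 with either covariate, and the mitochondrial median was 0.10 with the choroid plexus and 0.07 with the meningeal fibroblast covariate. With 1 library left out, nuclear medians ran from -0.20 to 0.00 for complex I, -0.19 to -0.05 for II, -0.20 to -0.04 for III, -0.21 to -0.01 for IV and -0.20 to -0.05 for V. Without control 4 and SAP97-cKO 1 together, complexes I, II and III stood at 0.01, -0.02 and -0.01. Per kb of the longest transcript, Sdha stood at 158, Atp5b at 702 and Cox8a at 676 CPM, so that Atp5b ranked first, and Ndufb9 and Uqcrh were highest in complexes I and III.

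Single genes changed sign in 25 of 702 refits. Without control 4 these were Atp5b (0.00), Cox4i1 (0.05), Cox6a1 (0.09), Cox6a2 (0.05), Cox6b1 (0.03), Cox8a (0.04) and Sdha (-0.00). With other libraries left out, the lowest values of these genes were -0.10, -0.19, -0.09, -0.28, -0.17, -0.12 and -0.01, and Sdha reached 0.04. Without control 4 and SAP97-cKO 1 they were Atp5b (0.04), Cox4i1 (0.08), Cox6a1 (0.09), Cox6b1 (0.08), Cox8a (0.03) and Sdhb (0.03, lowest -0.15 without control 1). The meningeal fibroblast covariate turned Cox6a2 (0.15), Cox7a1 (0.26), Cox8b (0.20), mt-Atp8 (0.13) and mt-Nd3 (-0.06). mt-Nd3 was at -0.01 without scaling, -0.00 with the choroid plexus covariate and -0.05 without control 1, and its highest value was 0.18. Sdha was at -0.04 without scaling, -0.00 without control 1 or SAP97-cKO 2 and -0.01 without SAP97-cKO 4. Of the rest, 655 kept direction and side of the threshold, 18 passed it newly and 4 (all Dlg1) lost it. The cause of these changes was not tested.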

Other observations

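Of 10 regulators of mitochondrial genes, 7 had log2 fold changes above 0, with a median of 0.05. The other 3 (30%) were below 0, beside 52.8% of all genes tested. The smallest p was that of Pprc1, a coactivator related to PGC-1, with 23.7, 19.3, 21.4 and 18.3 CPM in controls and 22.2, 24.2, 26.0 and 25.3 CPM in SAP97-cKO. The groups overlapped, and the log2 fold change was 0.24 (SE 0.094, edgeR adjusted p = 0.387, exact permutation test p = 0.0571).

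The copies of the scarce mitochondrial genes on chromosome 1 held few counts as well. Gm28661, which shares words with mt-Co2, had 96 to 163 counts per library, and mt-Co2 had 153 to 241. Gm10925 had 116 to 198 counts and mt-Atp6 145 to 264. Gm28437 had 119 to 187 counts and mt-Co3 162 to 286. Gm28438 had 13 to 46 counts and mt-Nd3 72 to 107.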
